A study of Mus musculus with 22 samples.

Results

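Immediate early genes are the genes that cells switch on within minutes of a stimulus, before any new protein is needed. Most encode transcription factors of the AP-1, EGR and NR4A families, which pass the signal on to later genes, and a few encode feedback regulators that shut the kinase signal down again. In nervous tissue they are read as a sign of recent activity or stress, and AP-1 and ATF3 are known injury factors of the optic nerve. The 10 immediate early genes described here were Fos, Fosb, Jun, Junb, Egr1, Egr2, Ier2, Atf3, Dusp1 and Nr4a1. They were picked by gene symbol, with earlier results of these data known, and all 10 were found among the 29367 genes of the count table.

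The libraries were meant to hold mRNA bound to astrocyte ribosomes. They came from mice whose intraocular pressure (IOP) had been raised by injecting microbeads into the eye. All mice came from a cross of the B6J.129(Cg)-Rpl22tm1.1Psam/SjJ strain, whose ribosomal protein gene Rpl22 gains an HA tag after Cre recombination, with B6.Cg mice carrying the transgene Tg (GFAP-Cre) 73.12Mvs/J, whose Cre acts wherever the mouse GFAP promoter has been active. They were 3 to 4 months old. The labels call the genotype WT, while the study's methods describe Cre-carrying mice homozygous for the tagged Rpl22 allele. Tissue was taken 7 or 30 days after injection from the unmyelinated optic nerve head (ONH) and the myelinated optic nerve proper (ONP), and each library pooled 4 mice of both sexes. The 22 libraries fell into 4 groups, with 4 ONH and 4 ONP libraries at 7 days and 7 of each at 30 days, and all of them came from injected eyes. Uninjured nerves were not analysed here, so every value below compares injured tissue with injured tissue.

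Library totals ran from 16292489 to 33307092 counts. Levels are given as CPM, a gene's counts scaled to a common library total, after TMM scaling, which removes differences in depth and composition, and 3 counts correspond to 0.0901 to 0.184 CPM. All 10 astrocyte markers were detected in every library, with a summed level of 13949 to 33885 CPM. Oligodendrocyte markers summed to 13381 to 40320 CPM in the ONH and to 25636 to 108647 CPM in the ONP. They exceeded the astrocyte sum in all 4 of the 7 day ONP libraries and in every 30 day ONP library but library 3. In the ONH they did so in libraries 1, 5 and 6 at 7 days and in libraries 4, 5 and 7 at 30 days. In such bulk libraries, fewer cells of a type and less RNA per cell cannot be told apart. How much RNA from other cells each library carried was not tested.

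The genes differ in size and position. On GRCm38, Jun lies at chr4:95049034-95052222 on the minus strand as a single exon block, Fos at chr12:85473890-85477273 on the plus strand, Dusp1 at chr17:26505590-26562128 on the minus strand and Nr4a1 at chr15:101254269-101274795 on the plus strand. Junb (chr8:84974484-84978718) and Ier2 (chr8:84661331-84662852) share a chromosome and the minus strand, with Fosb at chr7:19302696-19310051 (minus), Egr2 at chr10:67535475-67542188 (plus) and Atf3 at chr1:191170296-191218039 (minus). The exons of Jun, Junb and Dusp1 overlap those of Junos, Prdx2 and Ergic1 on the opposite strand by 232, 173 and 11 bases. The library kit does not mark strand, so reads from those stretches cannot be assigned to one gene of each pair.

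The promoters of Dusp1, Nr4a1 and Jun are shown because these are the immediate early genes that fell in the ONP between 7 and 30 days, and that of Fos because its level differed little between groups. Each is the 250 bases before the RefSeq start on GRCm38.p6, read 5′ to 3′ on the gene's strand, and capitals mark the motifs found on either strand. The positions are chr17:26508473-26508722 (minus) for Dusp1, chr15:101266596-101266845 (plus) for Nr4a1, chr4:95052223-95052472 (minus) for Jun and chr12:85473640-85473889 (plus) for Fos.
Dusp1: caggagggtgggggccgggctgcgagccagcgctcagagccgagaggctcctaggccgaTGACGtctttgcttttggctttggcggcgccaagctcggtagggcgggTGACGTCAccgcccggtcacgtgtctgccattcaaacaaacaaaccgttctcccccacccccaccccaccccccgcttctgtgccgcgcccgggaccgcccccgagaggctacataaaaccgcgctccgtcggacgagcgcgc
Nr4a1: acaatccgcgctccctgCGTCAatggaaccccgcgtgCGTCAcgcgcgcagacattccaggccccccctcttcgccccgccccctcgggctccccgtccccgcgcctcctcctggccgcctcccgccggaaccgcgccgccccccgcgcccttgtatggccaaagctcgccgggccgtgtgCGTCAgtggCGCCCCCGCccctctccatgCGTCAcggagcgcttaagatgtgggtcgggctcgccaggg
Jun: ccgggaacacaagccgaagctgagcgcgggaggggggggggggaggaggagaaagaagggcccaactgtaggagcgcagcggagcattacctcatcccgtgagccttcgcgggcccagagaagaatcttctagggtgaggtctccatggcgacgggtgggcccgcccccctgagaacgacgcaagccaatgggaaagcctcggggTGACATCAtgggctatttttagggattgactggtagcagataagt
Fos: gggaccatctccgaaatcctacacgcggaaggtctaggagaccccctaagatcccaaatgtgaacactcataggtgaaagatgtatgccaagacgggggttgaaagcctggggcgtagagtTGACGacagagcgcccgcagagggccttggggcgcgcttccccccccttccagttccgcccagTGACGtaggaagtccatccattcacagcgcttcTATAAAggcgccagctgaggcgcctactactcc
The search covered the full cAMP response element TGACGTCA, the looser TGACNTCA, the core TGACG, the AP-1 site TGANTCA, the EGR site GCGNGGGCG, the TATA motif TATAAA and the CArG box of serum response factor. The looser and core forms overlap the full element by construction. Among the 8 members with a promoter in the table, Dusp1 alone held TGACGTCA, 143 to 136 bases before its start, a motif present in 1.55% of all 32851 windows. Jun held TGACATCA 45 to 38 bases before its start, a form of TGACNTCA, which 7.49% of windows hold and Dusp1 also holds. The EGR site, in 4.70% of windows, was found in Nr4a1 at 60 to 52 bases and in Fosb at 50 to 42 bases before the start. Fos held TATAAA (12.4% of windows), Egr2 the CArG box (1.47%), and 7 of the 8 genes held the TGACG core (17.8%). Egr2 has several windows and was counted if any of them held a motif, while the shares are per window. No member's window held TGANTCA, found in 6.75% of all windows.

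Levels of the 10 genes spanned a wide range. Per kilobase of exon, Jun was the most abundant member in each of the 4 groups, from 72.6 CPM per kb in the ONP at 30 days to 144 CPM per kb in the ONH at 7 days. Dusp1 (17.1 to 79.1 CPM per kb) and Fos (27.9 to 36.7 CPM per kb) came next by their highest group, and Fosb was lowest in each group, at no more than 0.147 CPM per kb. Every member had its highest group mean in the ONH at 7 days, and 7 of 10 had their lowest in the ONP at 30 days. The ratio of highest to lowest group mean was 4.64 for Dusp1, 3.59 for Ier2, 2.76 for Nr4a1 and 1.99 for Jun, against 1.32 for Fos and 1.26 for Junb.

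**Figure D1:**
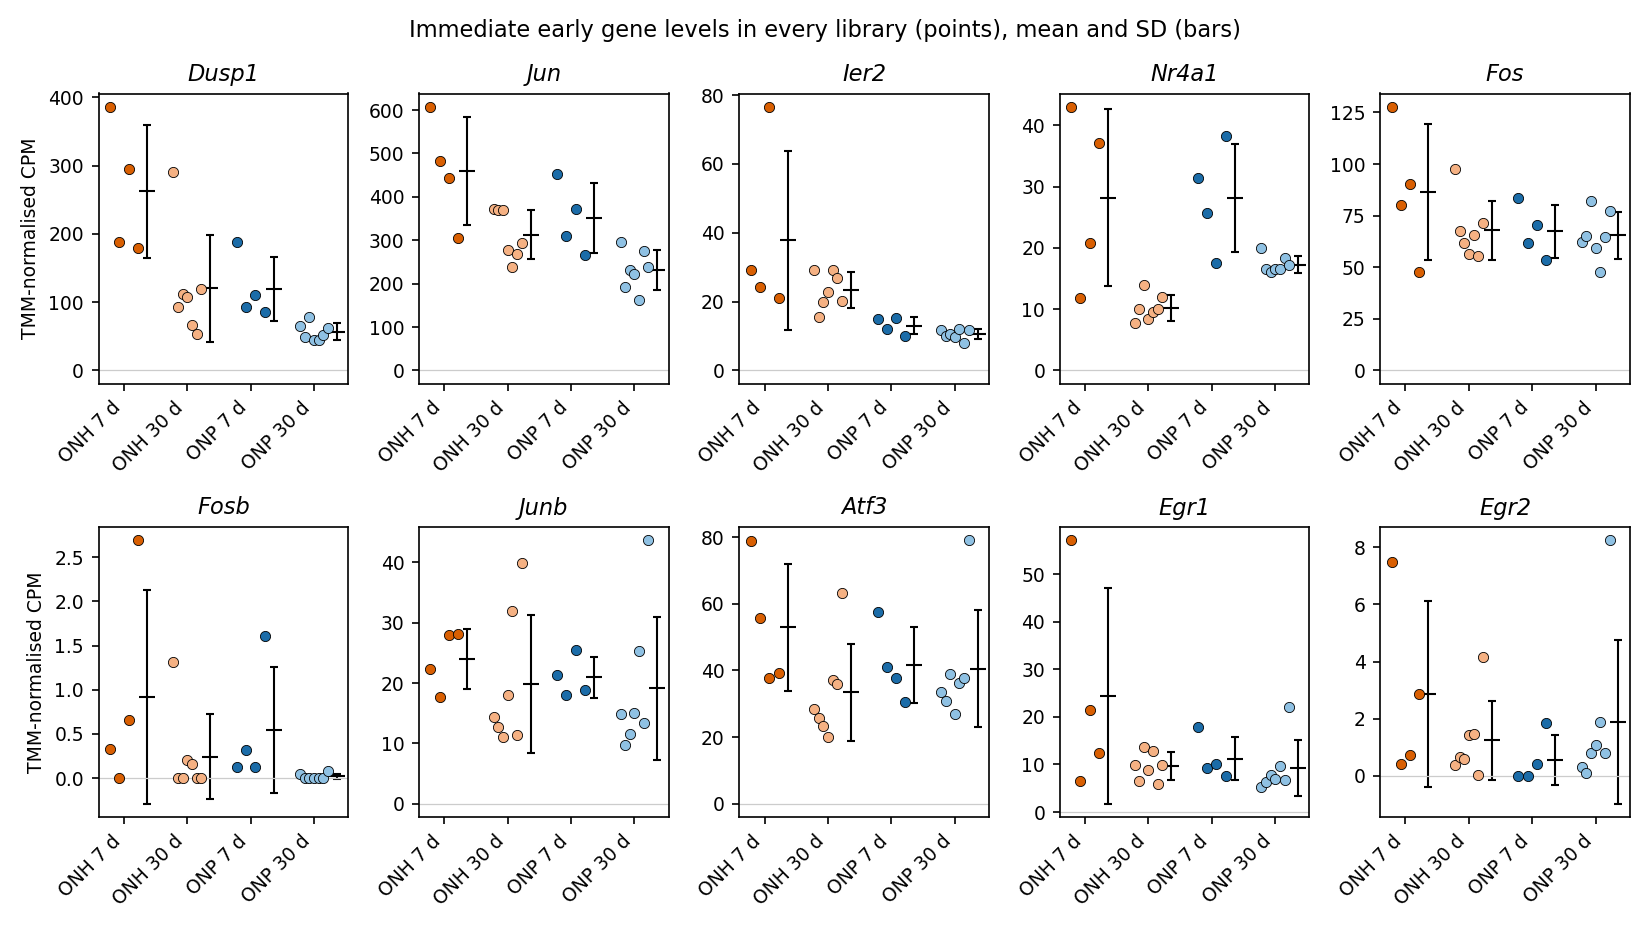
Level of each immediate early gene, in TMM-normalised CPM on the vertical axis, in every library of the 4 groups on the horizontal axis; bars show the mean and SD. Dusp1 in the ONP runs from 85.2 to 187 CPM at 7 days and from 43.8 to 77.9 CPM at 30 days, with no overlap.

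The first question was how the genes changed between the early and the late time point in the myelinated ONP. Dusp1, Nr4a1 and Jun fell from 7 to 30 days, and the other 6 members tested did not pass the threshold of an adjusted p under 0.05 in edgeR. Of the 15491 genes tested, 9.21% fell and 7.82% rose, so 3 of 9 tested members with a call to the lower side stood against 9.21% of all genes. The split of all calls depended on scaling, with 45.9% of them higher at 30 days under TMM and 66.7% under library size alone.

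Dusp1 encodes a nuclear phosphatase that switches off p38, JNK and ERK kinases. Its ONP levels at 7 days were 187, 93.0, 111 and 85.2 CPM, and at 30 days they ran from 43.8 over a median of 52.0 to 77.9 CPM. All 7 libraries at 30 days lay below every library at 7 days, a separation to the lower side that 5.55% of all tested genes had. The fall was 2.16-fold (log2FC -1.11, 95% interval -1.58 to -0.64, edgeR adjusted p = 0.0059).

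Nr4a1 encodes NUR77, an orphan nuclear receptor induced by calcium and growth signals. It measured 31.4, 25.6, 17.5 and 38.2 CPM in the ONP at 7 days and 16.1 to 19.9 CPM at 30 days, with a median of 16.5 CPM. Only the 7 day library numbered 5 reached down into the 30 day range. Its log2FC was -0.74 (95% interval -1.11 to -0.37, edgeR adjusted p = 0.0132), and without the 7 day library numbered 6 the adjusted p was 0.0615.

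Jun, the main DNA-binding subunit of AP-1, stood at 453, 310.2, 371 and 267 CPM in the ONP at 7 days and at 163 to 297 CPM at 30 days, with a median of 231 CPM. The groups overlapped through the lowest 7 day library. The fall was 1.55-fold (log2FC -0.64, 95% interval -1.01 to -0.26, edgeR adjusted p = 0.0255), with an adjusted p of 0.102 without the 7 day library 1 and of 0.0591 without library 5. With library size alone as the scaling, which moved the median of all genes by 0.11, the log2FC of Jun was -0.52 and its adjusted p 0.0612.

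Fos, Atf3 and Junb did not pass the threshold in the ONP. Fos had 53.5 to 83.7 CPM at 7 days and 47.8 to 82.0 CPM at 30 days, a difference of log2FC -0.08 whose 95% interval ran from -0.41 to 0.25. Atf3, a stress-induced repressor and injury factor, had log2FC -0.08 (95% interval -0.66 to 0.49). Junb, a partner that tempers JUN activity, had log2FC -0.17 (-0.94 to 0.60), with 18.1 to 25.5 CPM at 7 days and a wider 9.81 to 43.6 CPM at 30 days.

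Fosb did not pass the filter on low counts in any comparison between 2 groups. Its counts in the ONP at 7 days were 2, 5, 3 and 42, and at 30 days no library held more than 2. DESeq2, whose filter is looser, called it lower at 30 days (adjusted p = 0.00635), where 9.03% of its genes were called lower, but the levels at 30 days are at the floor of 3 counts and no fold is given. The library with 42 counts carried most of the 7 day level.

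Egr1 and Egr2, zinc finger factors of the growth factor response, varied widely. Egr1 had 7.67 to 17.8 CPM at 7 days and 5.35 to 22.02 CPM at 30 days (log2FC -0.32, 95% interval -1.14 to 0.50). Egr2, which also drives the myelinating programme of Schwann cells, was at 0 in a pair of the 7 day libraries and at 8.25 CPM in library 7 at 30 days (log2FC 1.64, 95% interval -1.05 to 4.33). Ier2, a short nuclear regulator of unsettled biochemical function, had log2FC -0.34 (95% interval -0.70 to 0.01, edgeR adjusted p = 0.16).

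The log2FC was negative for 8 of the 9 members tested in the ONP, where 50.7% of all genes tested were negative, and the members' median was -0.32 against -0.01 over all genes. Without the 7 day library 1, Atf3 (0.15), Fos (0.079) and Egr1 (0.034) were positive, as were Atf3 and Fos under library size alone. Without libraries 5 and 7 at 30 days, an alternative chosen after seeing the data because they held the most microglial marker counts in the ONP, Junb (log2FC -0.69, edgeR adjusted p = 0.0149) and Egr1 (-0.77, 0.0494) also fell, which made 5 members, while the calls over all genes went from 2638 to 3698. Fitted together with the ONH libraries, only Jun stayed past the threshold, with adjusted p of 0.0517 for Dusp1 and 0.0833 for Nr4a1.

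Marker genes of other cells moved in the same comparison. In the ONP, 7 of 9 oligodendrocyte markers and 5 of 8 endothelial markers were lower at 30 days, and the endothelial sum went from 103 to 165 CPM at 7 days to 12.6 to 104 CPM at 30 days. The microglial sum was 2505 to 4210 CPM in the 7 day libraries and had a median of 602 CPM at 30 days, with 0 of 10 microglial markers past the threshold. Of the 10 astrocyte markers, 2 were higher at 30 days and 0 lower. The part of these cells in the falls of Dusp1, Nr4a1 and Jun was not tested.

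**Figure D2:**
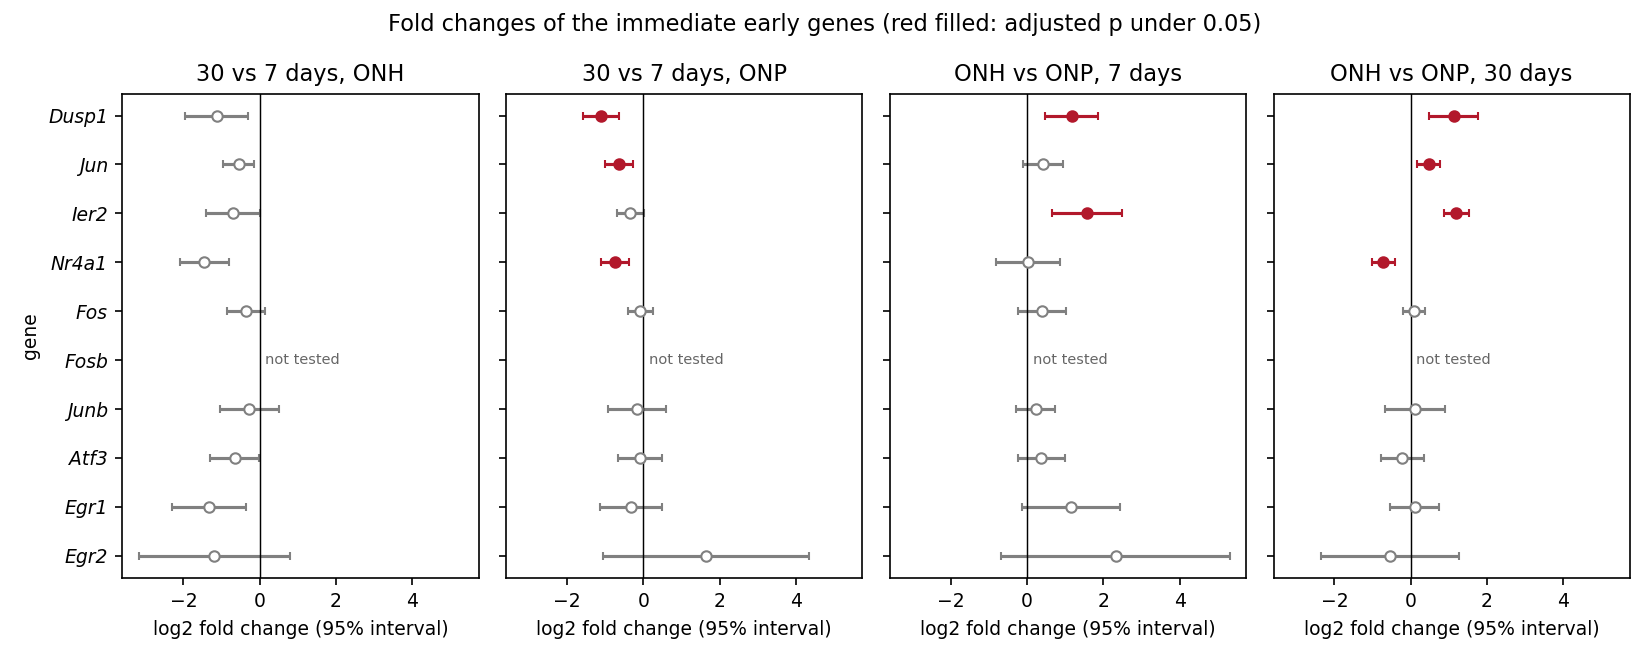
log2 fold change of each immediate early gene (horizontal axis, with its 95% interval) in the 4 comparisons between 2 groups; filled red points passed an edgeR adjusted p of 0.05. Dusp1, Jun and Nr4a1 lie left of 0 in the ONP over time, while Dusp1 and Ier2 lie right of 0 in both comparisons of the ONH with the ONP.

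In the ONH the same time comparison gave no call. None of the 15668 genes tested passed the threshold in edgeR, which is 0% as background, so 0 of 9 members did. All 9 tested members had a negative log2FC (51.6% of all genes did), with a median of -0.71 against -0.02 over all genes. At an unadjusted p under 0.05, 5 members were lower at 30 days, where 6.8% of all genes were. DESeq2 called Nr4a1 alone (adjusted p = 0.0028), and called 0.931% of its genes lower at 30 days.

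Nr4a1 had the smallest p of the members in the ONH. Its levels were 43.1, 11.8, 20.8 and 37.2 CPM at 7 days, against 7.67 to 14.0 CPM with a median of 9.98 CPM at 30 days. The 7 day library numbered 3 lay inside the 30 day range and the other 3 lay above it. The log2FC was -1.46 (95% interval -2.10 to -0.81, edgeR adjusted p = 0.18), and the adjusted p was 0.0472 without the 7 day library 5.

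Dusp1 and Jun had ONH estimates close in size to those of the ONP, with wider errors. Dusp1 measured 386, 188, 294 and 179.6 CPM at 7 days and 52.8 to 290.0 CPM at 30 days, with a median of 108 CPM. Library 1 at 30 days was the high one, and the other 6 lay below every 7 day library. The log2FC of Dusp1 was -1.13 (95% interval -1.96 to -0.30, edgeR adjusted p = 0.246) and that of Jun was -0.55 (-0.96 to -0.14, edgeR adjusted p = 0.247).

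Egr1 was uneven in the ONH at 7 days, with 57.1, 6.60, 21.4 and 12.4 CPM. At 30 days it ran from 5.81 over a median of 9.86 to 13.7 CPM. Its log2FC was -1.33 (95% interval -2.31 to -0.36, edgeR adjusted p = 0.243), and -0.49 without the 7 day library 1. Atf3 had log2FC -0.65 (95% interval -1.29 to -0.01), and -0.40 without that library. Ier2 (-0.71), Fos (-0.35), Junb (-0.27) and Egr2 (-1.19) had intervals across 0. Without library 1 the estimate was -0.10 for Fos and -0.062 for Egr2, and without library 5 it was -0.064 for Ier2.

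The members of the ONH did not separate by group. The share of all genes whose 30 day libraries lay wholly outside the 7 day range was 2.25%, and 0 of the 9 tested members were among them. Endothelial (8 of 8), fibroblast (6 of 6) and surface epithelial markers (7 of 7 tested) all had negative log2FC in this comparison. The medians were -1.97, -1.49 and -3.99, with 0 past the threshold in edgeR, where no gene passed. At an unadjusted p under 0.05 there were 5, 5 and 6 of these markers, and DESeq2 called 3, 0 and 5 lower. The epithelial sum was 332 CPM in the 7 day library 1, against 9.52 to 45.3 CPM in the other 3 and a median of 2.07 CPM at 30 days. The part of these cells in the members' values was not tested.

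Whether the change over time differed between regions was tested by the interaction, coded as the ONP change minus the ONH change. Of 16748 genes, 0.543% passed the threshold, and 0 of the 10 members did, with 0 at an unadjusted p under 0.05 (12.6% of all genes) and 0 by DESeq2. Dusp1 had an interaction of 0.02 on the log2 scale (95% interval -0.99 to 1.02) and Jun of -0.08 (-0.63 to 0.47). Nr4a1 came nearest, at 0.72 (95% interval -0.02 to 1.46, edgeR adjusted p = 0.418), a smaller fall in the ONP by its point estimate. The widest intervals were those of the sparse genes Egr2 (2.85, -0.54 to 6.25) and Fosb (-2.61, -6.51 to 1.29). A positive value was found for 8 of 10 members and for 50.9% of all genes. The calls in the ONP and their absence in the ONH are therefore not shown to differ.

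The second question was how the unmyelinated ONH differed from the ONP. At 30 days Ier2, Dusp1 and Jun were higher and Nr4a1 was lower in the ONH, 4 of the 9 members tested. These regions differed in much of the transcriptome, with 21.8% of 15133 genes higher and 20% lower in the ONH, so the members' share of calls was close to that of all genes. Both regions were taken from the same mice, and the test treats their libraries as independent.

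Ier2 had the smallest adjusted p of the members. It measured 15.5 to 29.3 CPM in the ONH, with a median of 22.7 CPM, and 8.01 to 11.9 CPM in the ONP, with a median of 10.54 CPM. Every ONH library lay above every ONP library. The difference was 2.29-fold (log2FC 1.19, 95% interval 0.86 to 1.52, edgeR adjusted p = 3.21e-05).

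Nr4a1 went the other way and separated as cleanly. Its ONH levels of 7.67 to 14.0 CPM all lay below its ONP levels of 16.1 to 19.9 CPM. The medians were 9.98 and 16.5 CPM. Its log2FC was -0.72 (95% interval -1.02 to -0.42, edgeR adjusted p = 0.000893). Wholly separate groups, as for Ier2 and Nr4a1, were found for 16.5% of all genes tested.

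Dusp1 ran from 52.8 over a median of 108 to 290.0 CPM in the ONH and from 43.8 over 52.0 to 77.9 CPM in the ONP, and 5 of the 7 ONH libraries lay above every ONP library. Its log2FC was 1.13 (95% interval 0.49 to 1.76, edgeR adjusted p = 0.00695), and 0.73 without ONH library 1, still past the threshold. Jun had log2FC 0.47 (95% interval 0.17 to 0.78, edgeR adjusted p = 0.0146). The ONH range of Jun was 238 to 371 CPM and overlapped the ONP range of 163 to 297 CPM.

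Fos, Junb, Egr1, Atf3 and Egr2 did not pass between the regions at 30 days. The interval was narrowest for Fos, with a log2FC of 0.09 between -0.20 and 0.39. Junb (0.11, -0.67 to 0.89), Egr1 (0.11, -0.53 to 0.75) and Atf3 (-0.23, -0.79 to 0.34) had wider ones, and that of Egr2 (-0.54, -2.35 to 1.27) spanned several fold. Fosb had 0 counts in 4 of the ONH and 5 of the ONP libraries.

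At 7 days Ier2 and Dusp1 were again higher in the ONH, the only members of 9 tested past the threshold. Among the 14752 genes tested, 6.34% were higher and 6.81% lower in the ONH, and by scaling the share of higher calls was 48.2% under TMM and 62.4% under library size alone. These 7 day groups share no library with the 30 day comparison, but each shares its libraries with a comparison over time.

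Ier2 measured 29.0, 24.3, 76.6 and 21.1 CPM in the ONH and 14.8, 12.02, 15.2 and 10.1 CPM in the ONP. All 4 ONH libraries were above all 4 ONP libraries, as for 9.88% of all genes, and library 5 stood far above the other 3. The log2FC was 1.58 (95% interval 0.66 to 2.50, edgeR adjusted p = 0.0309) and 0.92 without that library, still past the threshold. Leaving out any 1 of the 4 ONP libraries raised the adjusted p to 0.0679 to 0.0984.

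Dusp1 in the ONH, from 179.6 to 386 CPM, overlapped its ONP range of 85.2 to 187 CPM through 1 library on each side. The log2FC was 1.17 (95% interval 0.46 to 1.87, edgeR adjusted p = 0.036). The adjusted p rose to between 0.0823 and 0.113 when ONH library 1 or 5 or ONP library 2, 5 or 6 was left out. All 9 tested members had a positive log2FC (54.2% of all genes did), with a median of 0.42 against 0.07 over all genes.

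Nr4a1, which was lower in the ONH at 30 days, showed no such difference at 7 days. Its log2FC was 0.02 with an interval from -0.82 to 0.87, which also holds the 30 day estimate of -0.72. Egr1 (1.15, -0.14 to 2.43) and Egr2 (2.32, -0.68 to 5.32) had large estimates with intervals across 0, and without ONH library 1 the estimates were 0.30 and 1.19. Jun (0.42, -0.10 to 0.94), Fos (0.39, -0.23 to 1.01), Atf3 (0.37, -0.25 to 0.99) and Junb (0.23, -0.28 to 0.74) were nearer to 0.

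Other cells' markers differed between regions as well. At 30 days 7 of 9 oligodendrocyte markers were lower in the ONH, and 5 of 5 photoreceptor and 6 of 6 pigment cell markers were higher, with pigment sums of 76.7 to 549 CPM in the ONH and 3.48 to 7.83 CPM in the ONP. At 7 days the counts were 9 of 9 lower, 4 of 5 higher and 6 of 6 higher. Of the 7 neuron markers tested, 4 were higher in the ONH at each day. At 30 days 4 of 10 astrocyte markers were lower and 1 higher in the ONH, and at 7 days 2 lower and 0 higher. Over all genes, 20% were lower and 21.8% higher at 30 days, and 6.81% and 6.34% at 7 days. The part of other cells in the levels of Ier2, Dusp1, Jun and Nr4a1 was not tested.

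The order of the 4 groups differed between members. Ier2 was ordered by region, with both ONH groups above both ONP groups and no call between days within a region. Dusp1 had the same order of means as Ier2, but its middle groups were nearly equal. It had 262 CPM in the ONH at 7 days, 120.0 and 119 CPM in the middle groups and 56.5 CPM in the ONP at 30 days. The middle groups, ONH at 30 days and ONP at 7 days, differ in both factors and were not compared by a test, and their ranges overlapped. Nr4a1 was ordered by day, with 28.2 CPM in both regions at 7 days, then 17.3 CPM in the ONP and 10.2 CPM in the ONH at 30 days.

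Other genes of the same response were examined through lists chosen by known function, with earlier results of these data known. The other AP-1 factors and their small MAF partners had 0 of 11 tested past the threshold over time in the ONP by edgeR, with 1 at an unadjusted p under 0.05 and 0 by DESeq2. At 30 days 4 of 11 were higher in the ONH and 1 lower, against the background given above for that comparison. Fosl2, the long-lived FOS relative FRA2, stood at 15.8 ± 9.17 CPM in the ONH and 4.72 ± 1.93 CPM in the ONP (SD, n = 7 each; log2FC 1.78, edgeR adjusted p = 0.00112). It was also the only one of the 11 past the threshold at 7 days (log2FC 1.46, edgeR adjusted p = 0.00595). Maff (1.81), Atf7 (0.56) and Mafg (0.38) were higher and Atf2 (-0.62) was lower in the ONH at 30 days.

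Of the 4 relatives of the EGR and NR4A factors tested at 30 days, 2 were higher and 1 lower in the ONH. The shares over all genes were 21.8% and 20%. Nr4a2 was lower in the ONH, at 1.344 ± 0.646 against 3.54 ± 1.04 CPM (log2FC -1.35, edgeR adjusted p = 0.0111), the direction of Nr4a1. Nr4a3 was higher in the ONH, at 1.55 ± 1.08 against 0.428 ± 0.413 CPM (log2FC 1.89, edgeR adjusted p = 0.0252). Its ONP level is near the floor of 3 counts, 0.0901 to 0.184 CPM. Nab2, a corepressor that binds EGR factors, was higher in the ONH (log2FC 0.74, edgeR adjusted p = 0.0117). Between regions at 7 days 0 of 4 passed by edgeR, and all 4 had a positive log2FC. There were 2 at an unadjusted p under 0.05 and 2 called by DESeq2. None of the 4 tested members of this list passed over time in the ONP by edgeR, with 0 at an unadjusted p under 0.05 and 0 by DESeq2. Over time in the ONH 0 of 5 passed by edgeR, with 2 at an unadjusted p under 0.05 and 1 called lower by DESeq2. All 5 had a negative log2FC there, with a median of -1.30.

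The phosphatase relatives of Dusp1 fell in part. Over time in the ONP, 3 of 8 tested were lower at 30 days and 0 higher, where 9.21% of all genes were lower. The 3 were Dusp10 (log2FC -0.81), Dusp7 (-0.64) and Dusp16 (-0.62). Dusp10 and Dusp16 act on p38 and JNK, as Dusp1 does. Over time in the ONH 0 of 8 passed by edgeR, with 2 at an unadjusted p under 0.05 and 0 by DESeq2. In the ONH at 30 days Dusp14, Dusp4 and Dusp16 were higher than in the ONP, with log2FC 0.73, 1.84 and 0.99. These were 3 of 8 tested, with 0 lower, where 21.8% of all genes were higher and 20% lower. At 7 days Dusp4 (2.02) and Dusp14 (1.15) were higher and Dusp7 (-1.03) was lower. That was 2 and 1 of 8 tested, where 6.34% of all genes were higher and 6.81% lower.

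The longest list held 43 other rapidly induced genes. Of the 42 tested in the ONP, 16 fell and 2 rose between the days, where 9.21% of all genes fell and 7.82% rose. The median over the list was -0.43 on the log2 scale, against -0.01 over all genes. Sgk1, a serum and glucocorticoid induced kinase that oligodendrocytes also express, fell from 1271 ± 711 (n = 4) to 167 ± 70.5 CPM (n = 7; log2FC -2.96, edgeR adjusted p = 0.00103). Nfkbia, the inhibitor of NF-kB, fell with log2FC -1.48, the clock gene Per1 with -1.52, and the feedback regulators Errfi1 and Trib1 with -1.29 and -1.15. Arid5b had log2FC -1.23. The 2 that rose were Gadd45b (log2FC 0.72) and Gadd45a (0.52), DNA damage and growth arrest genes, named here after their values were seen. In the ONH 0 of 42 passed by edgeR, with 17 at an unadjusted p under 0.05 and 8 called by DESeq2. Nfkbia was the only gene of the 6 lists past the threshold for the interaction (-1.14, edgeR adjusted p = 0.0409).

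Between regions the same list went both ways. At 30 days 14 of 42 were higher and 6 lower in the ONH, where 21.8% and 20% of all genes were. They were led by Ier3 (log2FC 1.82), Ctgf (1.87), Cebpd (1.08), Trib1 (0.95) and Nfkbia (0.86), with Plk3 (-1.90) the other way. At 7 days 3 of 42 were higher and 4 lower, shares near the 6.34% and 6.81% of all genes. Ier3 (1.66) and Cebpd (1.104) were again higher, and Cebpb (4.10, named after its values were seen) was the third. Sgk1 (-2.18), Plk3 (-1.63), Homer1 (-1.54) and Rhob (-0.98) were lower.

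Genes that carry the signal to the immediate early promoters, such as MAP kinases, SRF and CREB, had 0 of 30 past the threshold over time in either region by edgeR, with 2 in the ONP and 1 in the ONH at an unadjusted p under 0.05 and 0 by DESeq2. Between regions at 30 days 7 were higher and 8 lower in the ONH, shares near the 21.8% and 20% of all genes. The cAMP-responsive factors Crem (log2FC 1.30) and Atf1 (0.94) were higher, and the kinases Rps6ka5 (-1.04), Rps6ka2 (-1.05), Map2k7 (-0.87) and Mapk7 (-0.83) were lower. Crem (1.29), Rps6ka5 (-1.36) and Map2k7 (-0.94) also passed at 7 days.

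Heat shock genes, which share fast induction with the members but use heat shock factors, fell in the ONP. There 7 of 12 were lower at 30 days, where 9.21% of all genes were. Among them were Hspa1b (log2FC -2.33), Hspa1a (-1.35), Hsp90aa1 (-0.81), Hspa8 (-0.71), Hspb1 (-0.65) and Hsph1 (-0.58). Hspa1b and Hspa1a are near-identical copies whose reads may be split between them. Over time in the ONH 0 of 12 passed by edgeR, with 3 at an unadjusted p under 0.05 and 3 called lower by DESeq2. The heat shock sum there ran from 3490 to 3970 CPM at 7 days and from 2559 to 3442 CPM at 30 days. In the ONH at 30 days 6 of 12 were higher than in the ONP, as were 21.8% of all genes. Hspb1 stood at 301 ± 66.4 against 119 ± 26.3 CPM (SD, n = 7 each).

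**Figure D3:**
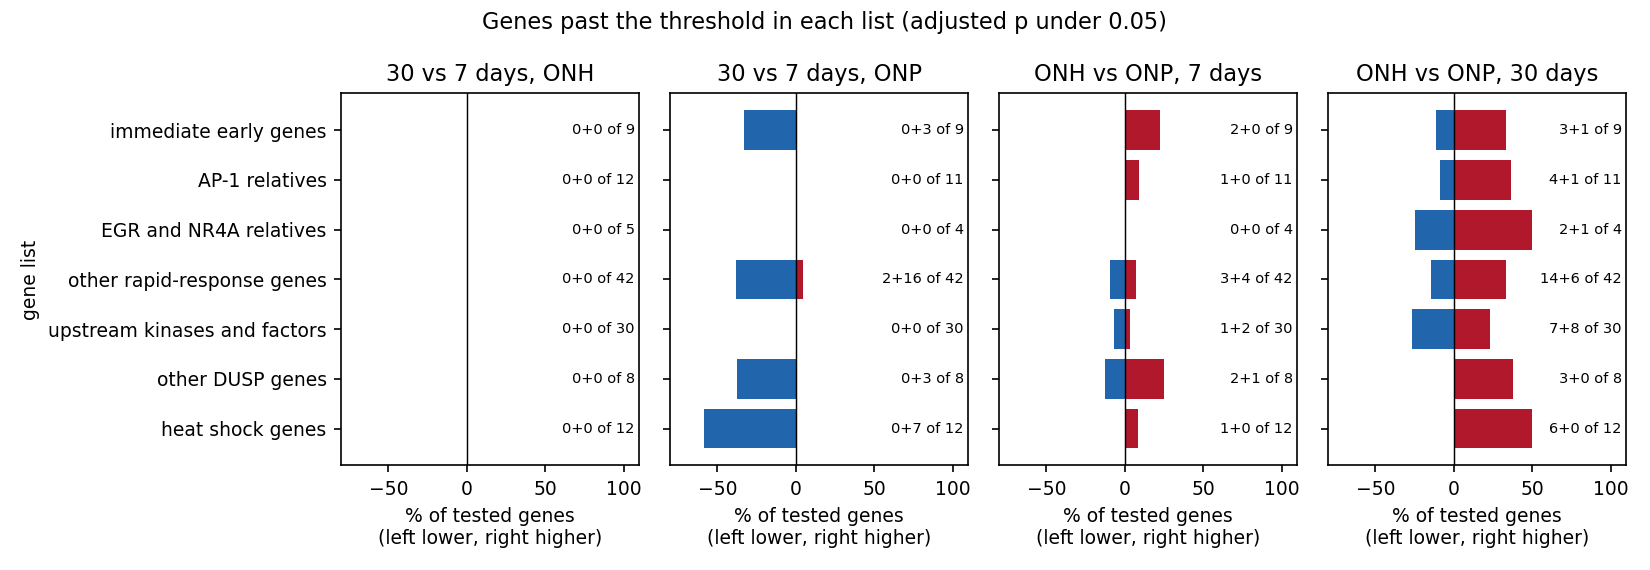
Share of each list's tested genes past an edgeR adjusted p of 0.05 (horizontal axis, in percent, lower to the left in blue and higher to the right in red), with the counts as higher + lower of tested. In the ONP over time the immediate early genes (0+3 of 9), other rapid-response genes (2+16 of 42), other DUSP genes (0+3 of 8) and heat shock genes (0+7 of 12) extend mostly to the left.

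Within a group, single libraries set much of the members' spread. In the ONH at 7 days library 1 was the highest for 7 of 10 members, and in the ONP at 7 days library 1 was highest for 5. At 30 days library 7 was the highest for 5 members in the ONP and for 3 in the ONH. In both regions these included Junb (39.8 CPM in the ONH and 43.6 CPM in the ONP), Atf3 (63.1 and 79.1 CPM) and Egr2 (4.14 and 8.25 CPM).

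Library 7 also had the highest summed microglial markers at 30 days, 6369 CPM in the ONH and 7351 CPM in the ONP. The group medians were 812 and 602 CPM. ONP library 5, next at 5776 CPM, was second for Junb (25.3 CPM) and Egr2 (1.88 CPM) but not for Atf3 (36.2 CPM). ONH library 4, next at 2237 CPM, was second for none of these, with 17.96 CPM of Junb and 1.41 CPM of Egr2, and it was the lowest for Atf3 (20.1 CPM). Fos, Jun, Dusp1 and Nr4a1 did not have their highest 30 day level in library 7 of either region. Whether microglial RNA contributed to these levels was not tested.

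**Figure D4:**
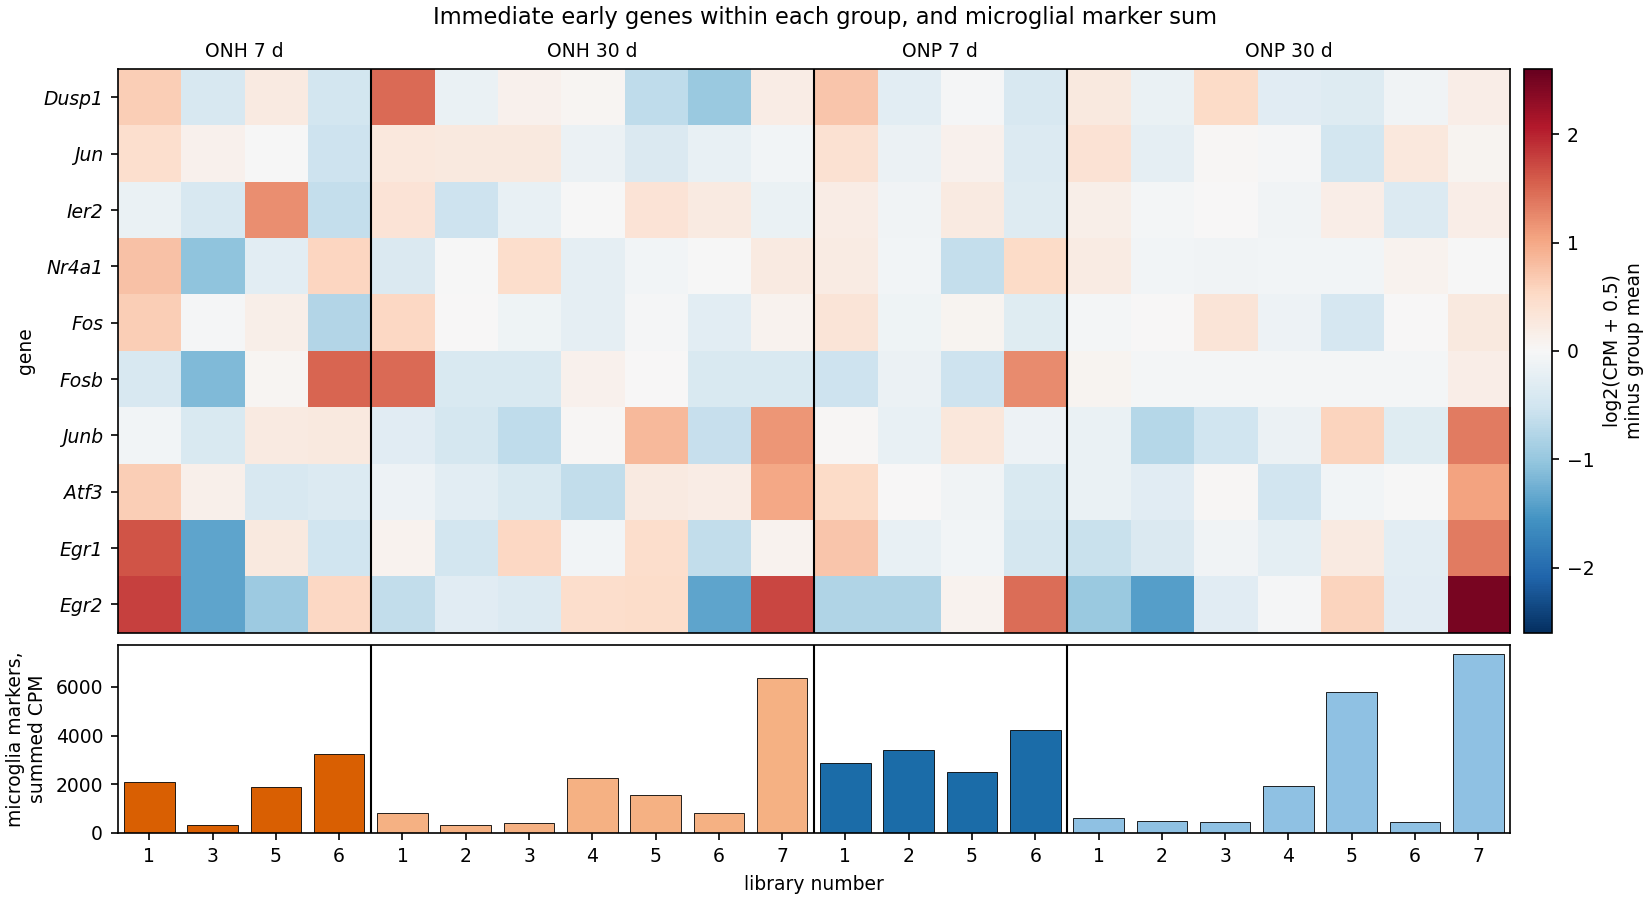
Each immediate early gene in every library, as log2(CPM + 0.5) minus its group mean (colour, red higher), above the summed CPM of 10 microglial markers in the same libraries (bars). Library 7 at 30 days is red for Junb, Atf3 and Egr2 in both regions and has the tallest bars, 6369 CPM in the ONH and 7351 CPM in the ONP.

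The genes whose pattern was most like the members' mean were found by Pearson r over the 22 libraries after subtracting group means, among 16738 genes. That mean took the unscaled log2 deviations of all 10 members, so the sparse genes Fosb and Egr2 could weigh most. In ONP library 7 at 30 days the deviation was 3.04 for Egr2 and 0.070 for Jun. In ONH library 3 at 7 days it was -2.52 for Fosb and 0.11 for Jun. The top 10 had r from 0.751 to 0.846 and were Cd300ld, Racgap1, Chpf2, Rai14, Dusp6, Rab7b, Havcr2, P2ry13, Sash3 and Cd86. Cd300ld, Havcr2, P2ry13, Sash3 and Cd86 encode proteins known from microglia and other leukocytes, and Dusp6, the ERK phosphatase, was the only one in a list used here. The libraries share depth and scaling, and the correlation is a description. Without the ONP library 7 at 30 days and the ONH library 3 at 7 days, the libraries farthest from the median of the members' mean, the r of Cd300ld was 0.758 and that of Cd86 was 0.604. With the authors' variance-stabilised values in place of CPM, 7 of these 10 were again among the top 10, and Havcr2, Cd86 and P2ry13 were not, at ranks 18, 22 and 32.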

How the data were processed

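The 22 libraries were polyA cDNA of HA-immunoprecipitated ribosome-bound RNA from a kit that does not mark strand. The deposited expected counts per gene were made by the authors by aligning reads to mm10 with STAR 2.6.1d and estimating counts with Salmon 0.14.2, and the deposited log2-scale variance-stabilised values were made by the authors with DESeq2 1.34.0 in R 4.1.0, versions that come from the submitters' processing notes. The first, which hold whole numbers, were used for every test, and the second only for the check of similar genes. Totals of 16292489 to 33307092 counts per library set the precision, and 3 counts were taken as the floor.

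Groups came from region and day in the labels. Genes were filtered with filterByExpr, scaled by TMM and fitted for each comparison in edgeR 4.0.16 (quasi-likelihood test, R 4.3.3), two-sided, without a block, with Benjamini-Hochberg adjusted p under 0.05 as the threshold and 95% intervals of log2FC. DESeq2 1.42.0, limma 3.58.1 (voom), other scalings and filters, a joint fit and leaving out each library were alternatives. The scripts were tested on simulated data. Figures used matplotlib 3.10.9.

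The study's methods take both regions from the same mice, but no source used here ties equal library numbers to 1 pool, so no result pairs libraries. The 7 day columns were tied to groups only, since their numbers differ from those of the labels. No 2 libraries held identical values, and the highest correlation between libraries was 0.98.

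Named were the 10 members in every comparison and, of each list of related genes, up to 6 with the smallest adjusted p past the threshold. Members and lists were chosen with earlier results of these data known. Gene positions came from GENCODE M21, and promoters from RefSeq (8 members matched). The pair of deposited tables holds no comparisons of the authors.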

Additional observations from a re-analysis of the deposited data

Results flagged for a closer look

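In 10 of the 40 combinations of gene and group examined, 1 library stood apart from the rest of its group by more than a test for a single outlying value (Dixon's, 95% level) allows. Chance alone flags about 1 in 20 groups when values are normally distributed. The CPM were not transformed and some were 0, so that rate need not hold here. Genes measured in 1 library are also not independent.

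ONP library 7 at 30 days stood apart for Egr1 (22.02 CPM, next library 9.76), Egr2 (8.25 CPM, next 1.88) and Atf3 (79.1 CPM, next 39.0). ONH library 7 at 30 days stood apart for Egr2 (4.14 CPM, next 1.46) and Atf3 (63.1 CPM, next 37.1). Both libraries had the highest summed microglial markers of their groups, 7351 and 6369 CPM, and the part of microglia was not tested.

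ONH library 1 at 30 days stood apart for Dusp1 (290.0 CPM, next 119), Fos (97.4 CPM, next 71.2) and Fosb (1.31 CPM, next 0.209). At 7 days the ONH library 5 stood apart for Ier2, at 76.6 CPM with the next at 29.0 CPM. The ONP library 6 stood apart for Fosb, at 1.61 CPM or 42 counts, with the next at 0.320 CPM.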

How the results depend on the processing

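The 4 differences between regions at 30 days passed in every alternative and without any 1 library. The numbers were not shown to pair the regions at 30 days, since the deviations of same-numbered libraries correlated at 0.075 to 0.495 over 7 pairs, and 3 of 7 libraries correlated best with their own number. With the replicate number as a block, log2FC was 1.17 for Ier2, 0.95 for Dusp1, 0.48 for Jun and -0.74 for Nr4a1, 4 calls again, with 6717 against 6322 calls over all genes. No block was fitted at 7 days, where the column numbers (1, 3, 5 and 6 in the ONH, 1, 2, 5 and 6 in the ONP) are not the labels' 1 to 4. No member passed for the interaction in any alternative.

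Over time in the ONP, 3 members passed, 1 (Jun) in a joint fit of all 4 groups and 5 without libraries 5 and 7 of 30 days. Over time in the ONH, 0 passed, but 1 (Nr4a1) did in the joint fit and 1 by DESeq2, and 0 to 1 with 1 library left out. Between regions at 7 days, 2 passed, and 0 to 2 with 1 library left out: 0 without ONP library 2, 5 or 6, and 1 without ONP library 1 or ONH library 1 or 5. Why these calls moved was not tested.

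Among all genes, the ONH time comparison had 0 calls by edgeR, 446 by DESeq2 and 292 in the joint fit. The ONP time comparison had 2638, with 1189 in the joint fit and 3698 without libraries 5 and 7. The 7 day regions had 1940, with 3211 by DESeq2 and 3785 in the joint fit. The interaction had 91, with 409 by DESeq2, 161 with the block, 55 by limma-voom and 50 without a filter. With 1 library left out, the counts were 0 to 167 (without 7 day library 5), 1439 (without 7 day library 6) to 3214, 1102 (without ONP library 6) to 2379 and 22 (without 7 day ONP library 1, 2 or 6) to 318 (without 7 day ONH library 5). At 7 days they were also 1147 and 1173 without ONP library 2 or 5.

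No called member changed sign, and some uncalled estimates did. With library size only, log2FC over time in the ONP was 0.029 for Atf3 and 0.038 for Fos, and the interaction of Jun was 0.079. Without libraries 5 and 7 the interaction of Dusp1 was -0.039 and the regional difference of Egr2 at 30 days 0.034. By limma-voom, Egr2 at 30 days was 0.52, the interactions of Ier2 and Junb were -0.022 and -0.24, and Nr4a1 at 7 days was -0.0093, and -0.0065 without a filter.

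With 1 library left out, the ONP time estimate ranged from -0.33 to 0.15 for Atf3, from -0.69 to 0.034 for Egr1 and from -0.15 to 0.079 for Fos. The regional difference at 30 days ranged from -0.48 to 0.011 for Atf3, -1.28 to 0.64 for Egr2, -0.031 to 0.15 for Fos and -0.18 to 0.45 for Junb, and at 7 days from -0.26 to 0.27 for Nr4a1. The interaction ranged from -0.19 to 0.41 for Dusp1, -0.28 to 0.60 for Ier2, -0.21 to 0.12 for Jun and -0.22 to 0.37 for Junb.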
